A study of Mus musculus with 20 samples.

Results

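TFIIIC-poor windows are stretches of 1 Mb on the mouse autosomes in which few TFIIIC peaks were called. The 19 autosomes were divided into 1 Mb windows starting from position 0, and the TFIIIC peaks whose midpoint fell in each window were counted in each of the 4 TFIIIC peak lists. The windows were chosen by these TFIIIC counts: a window was kept when every TFIIIC library had at least 1 peak in it and the mean over the 4 libraries was under 30 peaks. This gave 217 windows, 8.98% of the 2416 autosomal windows with a TFIIIC peak in every library and part of 2482 autosomal windows in all. When each TFIIIC list was first reduced to its 200350 top-scoring peaks, 511 windows met the rule, all 217 among them, so the number depends on how many peaks each list holds. The remaining 2199 windows with a mean of 30 or more are called the other windows here. A further 65 windows held no peak of any list, of which 57 form the starts of chromosomes, and 1 window, chr8:20000001-21000000, had a TFIIIC library without a peak. Positions are 1-based and in the mm9 build.

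The study compared chromatin of Rb1L/L fibroblasts with that of wild-type (WT) fibroblasts. Both genotypes were C57BL/6 mouse embryonic fibroblasts, primary connective tissue cells, derived from E13.5 embryos and used as proliferating, unsynchronised cultures at passage 4. Rb1L/L cells are homozygous for a mutant allele of Rb1, the gene of the retinoblastoma protein pRB. For each genotype there were 2 libraries for TFIIIC, 2 for the histone mark H3K27me3, 1 for CAP-D3 and 1 for CAP-H2, with 8 input samples for the series that are not analysed here. Cells for TFIIIC were fixed with 1% formaldehyde, and cells for the other antibodies with 2 mM EGS, a crosslinker that joins proteins, before 1% formaldehyde. Whether libraries of a group came from separate embryos or cultures is not stated, so the spread between them may be technical.

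TFIIIC is the multisubunit factor that recognises the internal promoters of tRNA genes and other short genes and brings RNA polymerase III to them. It also occupies many sites without the polymerase, and such sites have been tied to condensin and to genome folding in yeast and mammals. CAP-D3 and CAP-H2 are subunits of condensin II, a ring complex that stays in the nucleus during interphase and compacts chromosomes in mitosis. H3K27me3 is deposited by Polycomb repressive complex 2 and marks repressed genes, often developmental regulators, in broad domains. pRB binds condensin II, and its L mutation alters the binding cleft for proteins with an LXCXE motif. Since peaks are given by position only and no annotation of the mm9 build was used, the windows are described without gene names, and cell type markers were not checked.

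By construction the windows were low in TFIIIC, and the values that follow are a description of the choice. They held 27.7 and 27.2 TFIIIC peaks on average in the Rb1L/L libraries 1 and 2, and 19.7 and 21.4 peaks in the WT libraries 1 and 2. The other windows held 127 and 130 peaks in the Rb1L/L libraries and 86.8 and 103 peaks in the WT libraries. The counts in these windows were thus between 4.41 and 4.81 times lower, and the windows contained between 2.01% and 2.19% of the autosomal TFIIIC peaks of a library, a mean of 2.08% that became 5.84% in the 511 windows from equal numbers of peaks. Peaks there were of ordinary width. The median width was 760 and 749 bases in Rb1L/L and 661 and 690 bases in WT, against 765 and 756 bases in Rb1L/L and 642 and 678 bases in WT in the other windows.

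Across the 217 windows the mean TFIIIC count had a median of 25.25 peaks, with quartiles of 21.5 and 27.5 peaks. Most lay near the limit. A mean of 20 to 30 peaks was found in 175 windows, a mean of 10 to 20 in 40 windows and a mean under 10 in 2 windows. Every library had fewer than 30 peaks in 94 windows, whereas in 123 windows at least 1 library reached 30. Just inside the limit, 4 windows had a mean of 29.75, among them chr3:155000001-156000000 with 38 and 34 TFIIIC peaks in Rb1L/L and 22 and 25 in WT. Just outside it, 4 windows had a mean of 30, among them chr8:5000001-6000000 with 45 and 40 peaks in Rb1L/L and 19 and 16 in WT. The limit therefore crosses a continuous range, with 292 other windows at means of 30 to 40.

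The lists of the other antibodies took no part in the choice, and all 8 were sparser in the TFIIIC-poor windows. The ratio ranged from 2.52-fold for CAP-H2 to 6.79-fold for H3K27me3 in WT library 1. Over these 8 libraries the log2 ratio of peak density in TFIIIC-poor to other windows was -2.08 ± 0.59 (SD), and it was below 0 in 8 of 8. This SD is not a spread of replicates, since it includes differences between antibodies. Their mean log2 ratios were -2.56 for H3K27me3, -1.89 for CAP-D3 and -1.33 for CAP-H2. An exact two-sided sign-flip test over the libraries gave p = 0.0078125, the smallest that 8 libraries allow, with a Benjamini-Hochberg value of 0.0234 over 3 tests. The libraries were scored over the same windows, and some share an input, so they are not fully independent.

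**Figure D1:**
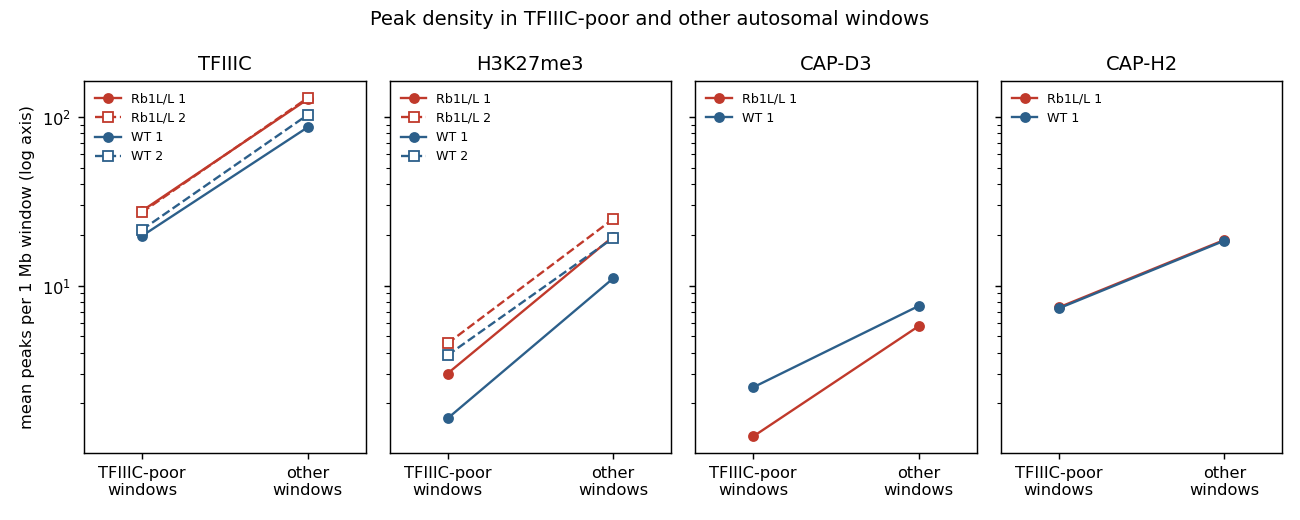
Mean number of peaks per 1 Mb window (log axis) in TFIIIC-poor and other autosomal windows, 1 line per library, Rb1L/L in red and WT in blue; filled circles are library 1 and open squares library 2. All 12 lines are lower on the left, with the shallowest slope for CAP-H2, at 7.41 and 7.32 peaks in TFIIIC-poor windows against 18.7 and 18.5 in the others.

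H3K27me3, the Polycomb mark, averaged 3.005 and 4.53 peaks per TFIIIC-poor window in Rb1L/L libraries 1 and 2 and 1.63 and 3.86 peaks in WT libraries 1 and 2. The other windows held 19.5 and 24.8 peaks in Rb1L/L and 11.04 and 19.1 peaks in WT. The TFIIIC-poor value was below the other value in each library, and the 2 sets of values did not overlap. The log2 density ratio was -2.56 ± 0.21 (SD, n = 4), below 0 in 4 of 4 libraries, and the exact sign-flip test gave p = 0.125, the smallest that 4 libraries allow, so this antibody alone cannot pass 0.05. Its Benjamini-Hochberg value was 0.1875. H3K27me3 had no peak in any of the 4 libraries in 19 TFIIIC-poor windows (8.76%) and in 61 other windows (2.77%). A peak in all 4 libraries was found in 94 TFIIIC-poor windows (43.3%), against 1730 other windows (78.7%).

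CAP-D3, a HEAT-repeat subunit of condensin II, had 1.27 peaks per TFIIIC-poor window in Rb1L/L and 2.49 in WT. The other windows held 5.75 and 7.57 peaks in Rb1L/L and WT. The density was 4.52-fold lower in Rb1L/L and 3.04-fold lower in WT, each from a single library. TFIIIC-poor windows held 276 of 12926 autosomal CAP-D3 peaks in Rb1L/L, or 2.14% (exact binomial 95% interval 1.89 to 2.40%), and 540 of 17192 in WT, or 3.14% (2.89 to 3.41%). The share was lower in Rb1L/L than in WT by 0.56 on the log2 scale. The intervals do not meet, but they cover counting error only, and with 1 library per genotype the difference between genotypes has no replicate check.

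CAP-H2, the kleisin subunit that closes the condensin II ring, had the smallest ratio. There were 7.41 peaks per TFIIIC-poor window in Rb1L/L and 7.32 in WT, against 18.7 and 18.5 peaks in the other windows of Rb1L/L and WT. The TFIIIC-poor windows held 3.77% of autosomal CAP-H2 peaks in Rb1L/L (3.596 to 3.96%) and 3.77% in WT (3.59 to 3.95%), so the intervals of the 2 genotypes overlapped almost fully. The log2 ratios were -1.33 in Rb1L/L and -1.33 in WT. The log2 ratios of all 4 H3K27me3 libraries lay below both CAP-D3 values, and these lay below both CAP-H2 values. This order of the antibodies was not tested, and it changed with some limits on the score. The order of the means was the same in 15 of 17 settings of the processing, but not with scores of at least 500 or 1000. Of the autosomal peaks in Rb1L/L, the limit of 500 kept 8262 of 12926 for CAP-D3 but 8648 of 42626 for CAP-H2. Such a limit therefore does not compare like parts of the lists. At scores of at least 500 the mean log2 ratio was -2.96 for H3K27me3, -3.09 for CAP-D3 and -2.17 for CAP-H2, and at scores of at least 1000 it was -2.80, -3.40 and -3.03 for these antibodies.

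Between genotypes, the share of H3K27me3 peaks that fell in TFIIIC-poor windows was 1.495 and 1.77% in Rb1L/L and 1.43 and 1.95% in WT. The 2 genotypes overlap completely. The log2 difference of Rb1L/L minus WT was -0.04, with an exact permutation p of 1, and 2 libraries against 2 cannot go below 0.333. The TFIIIC shares of 2.10 and 2.03% in Rb1L/L and 2.19 and 2.01% in WT also overlapped. That share is part of the choice of windows and was not tested.

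The depletion of the other antibodies did not end at a mean of 30 TFIIIC peaks. Averaged over the libraries of an antibody, windows with a mean under 20 TFIIIC peaks held 2.60 H3K27me3, 1.80 CAP-D3 and 6.61 CAP-H2 peaks. Those with a mean of 25 to 30 held 3.88, 1.93 and 7.54 peaks of these 3 antibodies, and other windows with a mean of 35 to 40 held 2.51, 2.14 and 7.92 peaks. Across these classes the TFIIIC count itself was 16.1, 27.4 and 37.4 peaks, a wider relative range than that of CAP-D3 or CAP-H2. Windows with 100 or more TFIIIC peaks held 32.2 H3K27me3, 10.4 CAP-D3 and 26.3 CAP-H2 peaks. No step was seen at the limit of 30 peaks.

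**Figure D2:**
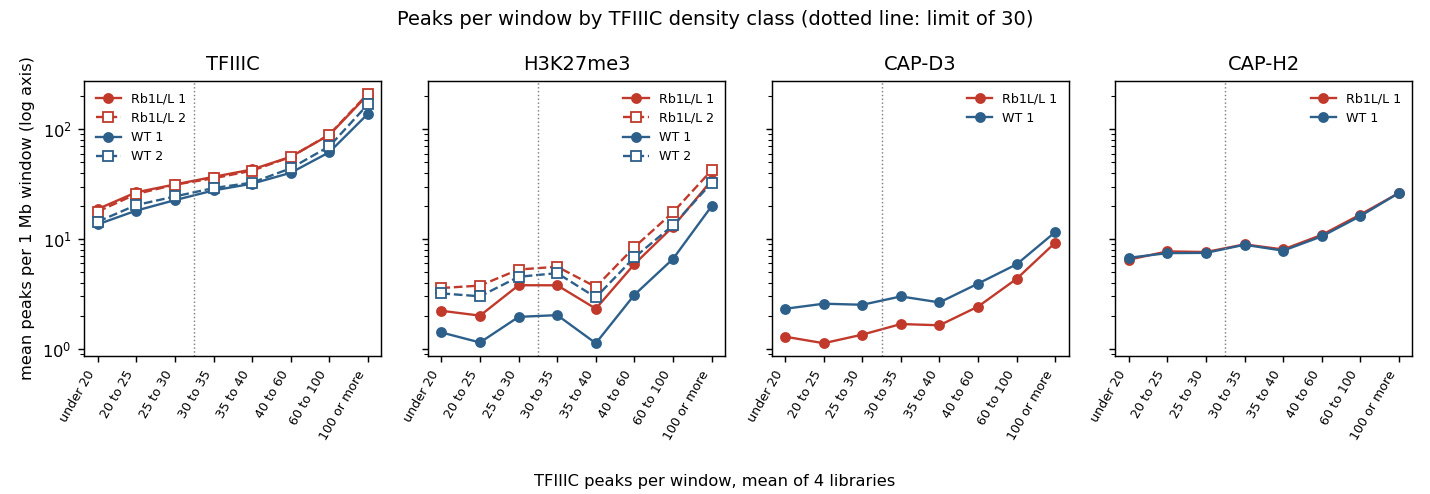
Mean peaks per 1 Mb window (log axis) by class of mean TFIIIC count, 1 line per library, Rb1L/L in red and WT in blue; the dotted vertical line marks the limit of 30. The TFIIIC panel is fixed by the classes, while in the other panels the lines stay low up to the class of 35 to 40 and then climb, for CAP-H2 to 26.3 peaks at 100 or more.

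Within the 217 windows the antibodies did not follow the TFIIIC count. The Spearman correlation of the mean TFIIIC count with the mean count was 0.01 for H3K27me3, 0.06 for CAP-D3 and 0.13 for CAP-H2, against 0.71, 0.71 and 0.58 across the 2199 other windows. These are descriptions over windows that share libraries, and the TFIIIC count spans a much shorter range in the 217 windows. The correlation between libraries of 1 antibody was lower in the TFIIIC-poor windows than in the others, least so for CAP-H2. Between Rb1L/L and WT it was 0.91 for CAP-H2, against 0.97 in the other windows, and 0.42 for CAP-D3, against 0.88. Between the 2 H3K27me3 libraries it was 0.71 in Rb1L/L and 0.68 in WT, against 0.96 in Rb1L/L and 0.93 in WT in the other windows. Between the 2 TFIIIC libraries it was 0.68 in Rb1L/L and 0.53 in WT, against 0.99 in Rb1L/L and 0.97 in WT.

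**Figure D3:**
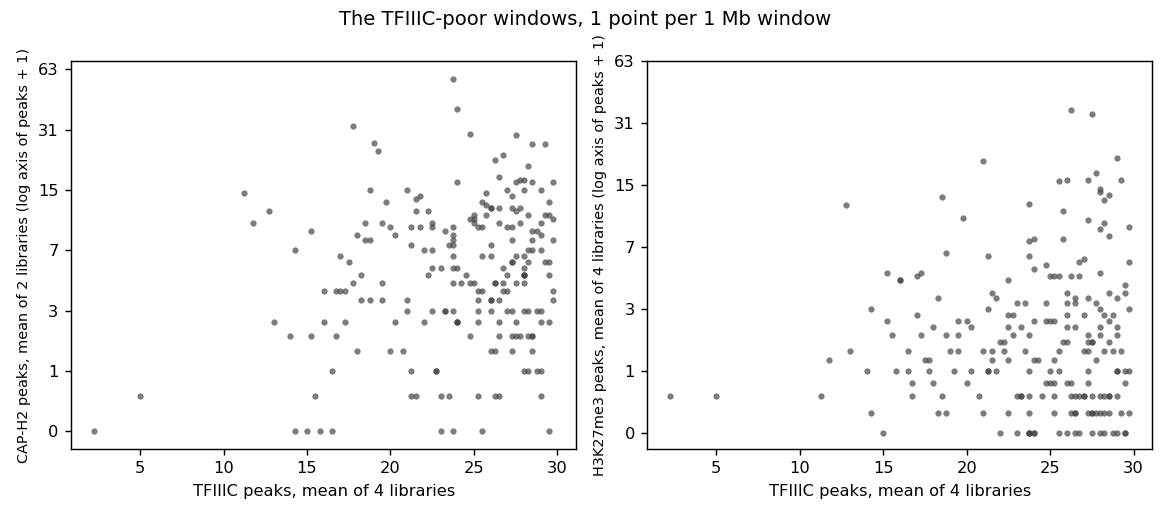
Each point is 1 of the 217 TFIIIC-poor windows, with its mean TFIIIC count on the horizontal axis and its mean CAP-H2 count (left) or H3K27me3 count (right) on a log axis of peaks + 1. Both antibodies spread from 0 to high counts at any TFIIIC count above about 20, up to 56.5 CAP-H2 peaks and 36 H3K27me3 peaks.

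Peaks were unevenly spread over the windows, most of all for H3K27me3. The 10 windows richest in an antibody held between 27.6 and 34.8% of its peaks in TFIIIC-poor windows for the 4 H3K27me3 libraries. The same share was 20.3% in Rb1L/L and 18.8% in WT for CAP-H2, 16.7% in Rb1L/L and 13.7% in WT for CAP-D3, and 6.24 to 6.91% for the 4 TFIIIC libraries. Some windows poor in TFIIIC were thus as rich as ordinary ones in another antibody. The mean count reached the median of the other windows in 19 windows for CAP-H2, 17 for H3K27me3 and 5 for CAP-D3. A peak in all 12 lists was found in 69 TFIIIC-poor windows (31.8%) and 1631 other windows (74.2%).

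The 2 windows lowest in TFIIIC held few peaks of any list, and the lower one is not a full window. In chr9:124000001-125000000 there were 5 and 2 TFIIIC peaks in Rb1L/L and 1 and 1 in WT, and no CAP-D3 or CAP-H2 peak. It is the last window of chromosome 9, where the sequence ends within the window, and its last peak of any list ends 75.3 kb into it. In chr8:56000001-57000000 there were 5 and 8 TFIIIC peaks in Rb1L/L and 4 and 3 in WT, 1 CAP-H2 peak in Rb1L/L and none in WT, and a peak-free stretch of 791 kb. Stretches of at least 300 kb without a peak of any list occurred in 12 of the 217 TFIIIC-poor windows (5.53%) and 13 of the 2199 others (0.59%). In 7 of these 12 and 7 of these 13 the stretch is the tail of the last window of a chromosome, part of which lies past the end of the sequence, which leaves 5 TFIIIC-poor and 6 other windows. The longest stretch had a median of 80.0 kb in TFIIIC-poor windows and 34.3 kb in the others. The 7 last windows among the TFIIIC-poor ones, on chromosomes 1, 9, 12, 13, 14, 17 and 19, had their last peak between 75.3 and 340 kb into the window, so each covers only part of 1 Mb. Their mean TFIIIC counts of 2.25 to 29.75 peaks lie in that part alone. They are therefore low per window, but were not shown to be low per base of sequence. Without the end windows of chromosomes 210 TFIIIC-poor windows remained, and the log2 density ratio over the 8 libraries was -2.07.

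The third lowest window, chr2:141000001-142000000, was of another kind. It had 13 and 12 TFIIIC peaks in Rb1L/L and 10 and 10 in WT, yet 15 CAP-H2 peaks in Rb1L/L and 14 in WT, close to the median of 16 peaks in the other windows. It held 3 CAP-D3 peaks in Rb1L/L and 2 in WT, and no H3K27me3 peak in Rb1L/L and 0 and 2 in WT. The fifth lowest, chr7:98000001-99000000, had 14 and 14 TFIIIC peaks in Rb1L/L and 11 and 12 in WT, with 6 and 18 H3K27me3 peaks in Rb1L/L and 4 and 19 in WT. Its CAP-D3 count was 3 in Rb1L/L and 4 in WT, and its CAP-H2 count 11 in Rb1L/L and 12 in WT. In that window library 2 held more H3K27me3 peaks than library 1 in both genotypes. Low TFIIIC therefore occurred with both condensin II subunits and little H3K27me3, or with all 3.

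The richest in H3K27me3 was chr2:133000001-134000000, with 51 and 43 H3K27me3 peaks in Rb1L/L and 16 and 34 in WT. Of its H3K27me3 peaks, 4 and 2 in Rb1L/L and 3 and 5 in WT overlapped a peak in all 3 other H3K27me3 libraries. Its CAP-H2 count was low, at 3 peaks in Rb1L/L and 6 in WT. The window before it had 34 and 31 H3K27me3 peaks in Rb1L/L and 17 and 31 in WT, and the window after it had 4 and 4 in Rb1L/L and 1 and 0 in WT. It therefore lies at the edge of an H3K27me3-rich stretch, on the side where TFIIIC is low. The preceding window held 125 and 126 TFIIIC peaks in Rb1L/L and 92 and 104 in WT, against 30 and 32 in Rb1L/L and 23 and 20 in WT in the window itself.

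Second in H3K27me3 was chr19:60000001-61000000, with 42 and 52 peaks in Rb1L/L and 16 and 28 in WT. It also had the most CAP-D3 peaks of the 217, with 7 in Rb1L/L and 7 in WT, and 15 and 18 CAP-H2 peaks in Rb1L/L and WT. Of its 7 CAP-D3 peaks in each genotype, 5 overlapped a peak of the other genotype. None of its H3K27me3 peaks in any library overlapped a CAP-D3 or CAP-H2 peak of the same genotype, so the marks lie in the same window but at different places. Over all TFIIIC-poor windows, H3K27me3 of any library overlapped 1.55% of CAP-H2 peaks in Rb1L/L and 1.51% in WT. For CAP-D3 it was 10.5% in Rb1L/L and 5.93% in WT, so the lack of overlap is not particular to this window. Next came chr11:36000001-37000000 with 23 and 31 H3K27me3 peaks in Rb1L/L and 7 and 22 in WT. In chr7:78000001-79000000 there were 9 and 38 peaks in Rb1L/L and 6 and 27 in WT, again with library 2 far above library 1. Peaks that overlapped a peak in all 3 other H3K27me3 libraries were counted in these windows. On chromosome 19 they were 5 and 5 in Rb1L/L and 5 and 6 in WT. On chromosome 11 they were 6 and 6 in Rb1L/L and 6 and 5 in WT, and on chromosome 7 they were 1 and 1 in Rb1L/L and 1 and 3 in WT.

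CAP-H2 was most abundant in chr8:105000001-106000000, with 68 peaks in Rb1L/L and 45 in WT. The preceding window had 2 and 8 CAP-H2 peaks in Rb1L/L and WT, and the following window 30 and 28, so this is a local concentration. Of the 68 peaks in Rb1L/L, 33 overlapped a WT peak, and of the 45 in WT, 31 overlapped an Rb1L/L peak. The window held 2 CAP-D3 peaks in each genotype, no more than 3 H3K27me3 peaks in any library, and 21 and 30 TFIIIC peaks in Rb1L/L and 21 and 23 in WT. In chr4:64000001-65000000 there were 41 CAP-H2 peaks in Rb1L/L and 38 in WT, next to a window with 71 in Rb1L/L and 57 in WT. In chr12:96000001-97000000 there were 34 peaks in Rb1L/L and 31 in WT, against 8 and 6 in the window before it. Both CAP-H2 libraries were high in each of these windows, while TFIIIC stayed at 13 to 26 peaks per library in the windows on chromosomes 4 and 12.

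TFIIIC-poor windows occurred on all 19 autosomes, at unequal rates. Chromosome 8 had the highest share with 18 of 127 windows (14.2%), followed by chromosome 16 with 13 of 96 (13.54%). Chromosome 9 had the lowest with 3 of 122 (2.46%), and chromosome 7 had 6 of 144 (4.17%). Adjacent windows formed 155 runs, of which 109 were single windows, and 108 windows (49.8%) lay in runs of 2 or more. The longest run was chr4:64000001-69000000 with 5 windows, and runs of 4 were chr11:36000001-40000000 and chr19:49000001-53000000. The run on chromosome 11 averaged 21.1 TFIIIC peaks per window, while the window before it had 211.

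Surrounding windows were intermediate. In windows directly next to a TFIIIC-poor one, TFIIIC averaged 64.6 and 64.8 peaks in Rb1L/L and 46.0 and 51.5 in WT, between 2.33 and 2.41 times the level inside. The TFIIIC values describe how the windows were chosen. H3K27me3 averaged 5.39 and 7.78 peaks in Rb1L/L and 2.79 and 6.08 in WT in these neighbours, 1.58 to 1.79 times the level inside. CAP-H2 averaged 11.9 peaks in Rb1L/L and 11.8 in WT there, 1.61 times the level inside in both. More than 10 windows away, H3K27me3 was at 5.96 to 8.49 times and CAP-H2 at 2.69 times in Rb1L/L and 2.67 times in WT. CAP-H2 thus came within about its distant level at 3 to 5 windows, with 19.7 peaks in Rb1L/L and 19.5 in WT.

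**Figure D4:**
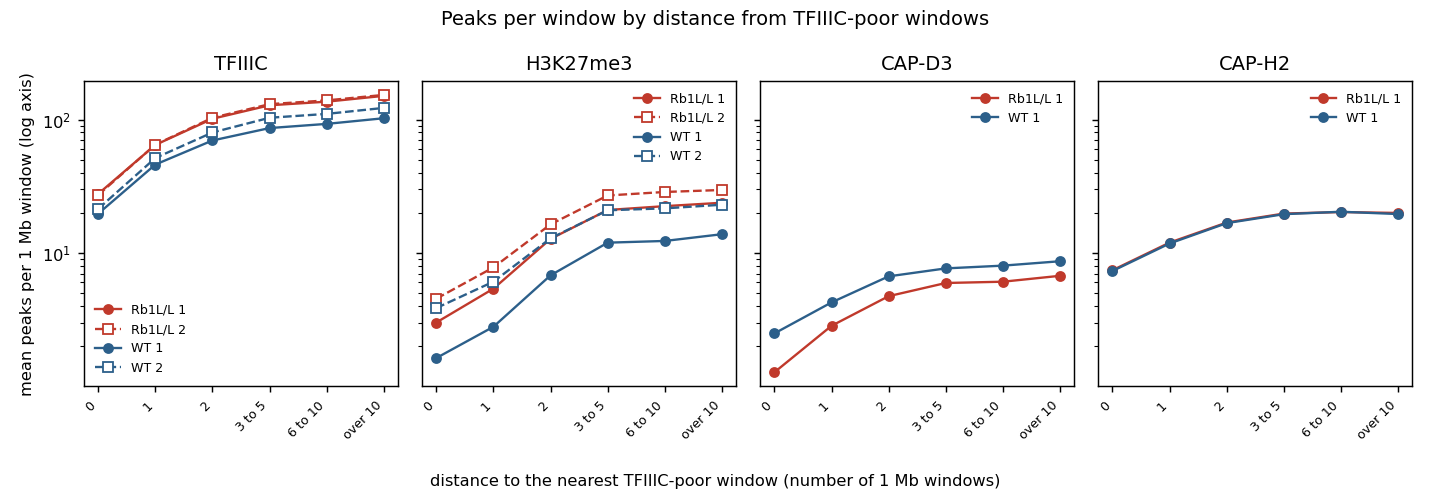
Mean peaks per 1 Mb window (log axis) by distance to the nearest TFIIIC-poor window, counted in windows, 1 line per library, Rb1L/L in red and WT in blue. Every line is lowest inside the TFIIIC-poor windows, and H3K27me3 in Rb1L/L library 1 reaches 23.8 peaks beyond 10 windows, against 3.005 inside.

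In every list the lowest-scoring of 4 classes of peaks had the largest share in TFIIIC-poor windows. For TFIIIC and H3K27me3 the share rose again among the very strongest peaks. The score is the authors' value for each peak and ranks peaks within 1 list only. When each list was divided into 4 equal classes by score, the lowest-scoring class had the largest share in 12 of 12 lists. For CAP-D3, that share was 3.90% of the lowest class and 0.80% of the highest in Rb1L/L, and 5.77% and 0.72% in WT. For CAP-H2 it was 4.58% of the lowest and 2.83% of the highest class in Rb1L/L, and 4.92% and 2.29% in WT. In the TFIIIC lists the highest class was at 2.01 and 2.01% in Rb1L/L and 2.18 and 2.22% in WT, above the second class in all 4 libraries. At scores of at least 1000 it was 2.86 and 2.43% in Rb1L/L and 4.36 and 3.34% in WT, above the lowest class in all but Rb1L/L library 2. For H3K27me3 the share was 1.06 and 0.99% in Rb1L/L and 1.10 and 1.19% in WT at scores of at least 200. With scores of at least 1000 it was 1.29 and 1.39% in Rb1L/L and 1.51 and 1.39% in WT. It stayed below the share of the lowest class in all 4 H3K27me3 libraries. These shares all stayed below the 8.98% of compared windows that are TFIIIC-poor. The TFIIIC lists chose the windows, so the TFIIIC shares are a description. The median CAP-D3 score was 422 in Rb1L/L and 229 in WT in TFIIIC-poor windows, against 749 in Rb1L/L and 370 in WT in the others. Scores depend on the depth of a library and on its input, and their part in the difference between genotypes for CAP-D3 was not tested. Among CAP-D3 peaks with a score of at least 500, the share in TFIIIC-poor windows was 1.23% in Rb1L/L (1.01 to 1.497%) and 1.06% in WT (0.84 to 1.33%), so the direction seen over all peaks turned round and the intervals overlapped. For CAP-H2 the same limit gave 2.64% in Rb1L/L (2.31 to 2.996%) and 1.75% in WT (1.42 to 2.13%), whereas the shares over all peaks were alike. An equal score does not mark equal enrichment in 2 lists.

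**Figure D5:**
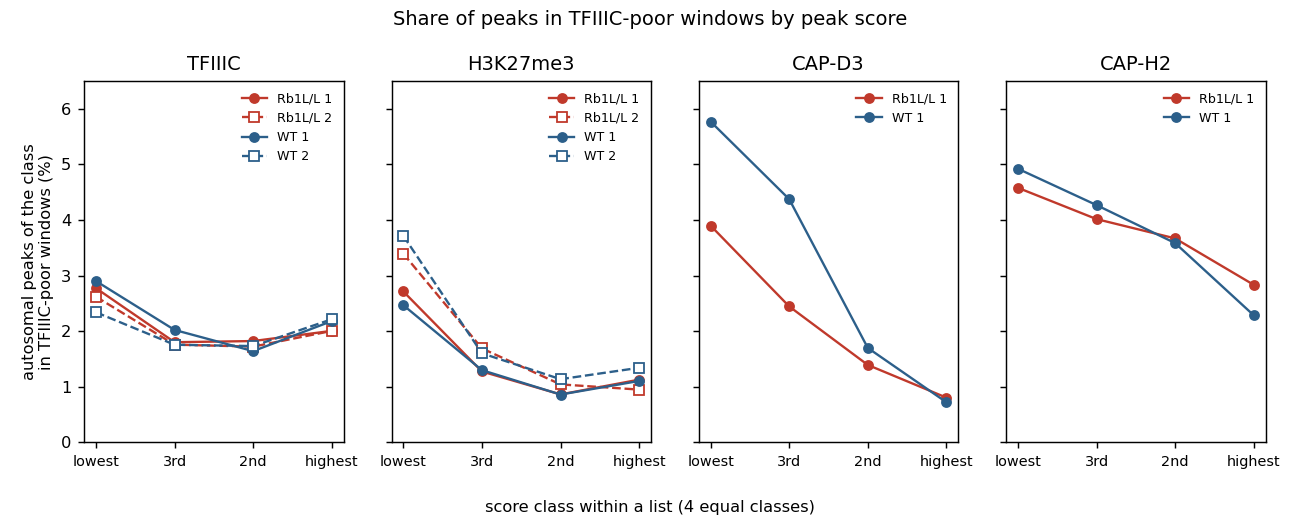
Share of the autosomal peaks of a score class that lay in TFIIIC-poor windows, for the 4 score classes of each list from lowest to highest, 1 line per library, Rb1L/L in red and WT in blue. CAP-D3 falls most steeply, to 0.80% in Rb1L/L and 0.72% in WT in the highest class.

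Fewer CAP-D3 peaks of TFIIIC-poor windows had a counterpart in the other genotype. In Rb1L/L, 105 of 276 (38.0%) overlapped a WT CAP-D3 peak by at least 1 base, against 71.2% in the other windows. In WT, 105 of 540 (19.4%) overlapped an Rb1L/L CAP-D3 peak, against 54.7%. After merging, 102 of 708 CAP-D3 regions (14.4%) in TFIIIC-poor windows were found in both genotypes, 171 in Rb1L/L alone and 435 in WT alone. In the other windows 44.2% were found in both. CAP-H2 was different in size: 64.9% of its peaks in Rb1L/L and 65.6% in WT had a counterpart in the other genotype, against 71.4% in Rb1L/L and 71.5% in WT in the other windows. The binomial intervals of the TFIIIC-poor and other shares were apart for both subunits, and cover counting error only. CAP-D3 peaks covered 0.09% of TFIIIC-poor windows in Rb1L/L and 0.14% in WT, against 0.53% in Rb1L/L and 0.59% in WT of the others. Their scores were also lower there, as given above. The part of sparsity and score in the CAP-D3 overlaps was not tested.

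Overlap between the 2 condensin II subunits was also lower in these windows. In Rb1L/L, 39.5% of CAP-D3 peaks (33.7 to 45.5%) in TFIIIC-poor windows overlapped a CAP-H2 peak, against 67.1% in the others. In WT, the share was 23.7% (20.2 to 27.5%), against 57.1%. Seen from CAP-H2, 6.90% of its peaks in Rb1L/L and 7.87% in WT overlapped CAP-D3, against 20.4% in Rb1L/L and 22.4% in WT in the other windows. Overlaps by place alone would be fewer where peaks are sparse, and CAP-H2 peaks covered 0.66% of TFIIIC-poor windows in both genotypes, against 1.95% in Rb1L/L and 1.98% in WT of the others. The part of this sparsity in the overlaps was not tested.

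Few condensin II peaks in these windows lay on TFIIIC. A TFIIIC peak of the same genotype overlapped 2.73 and 2.55% of CAP-H2 peaks in Rb1L/L and 2.58 and 2.83% in WT, for TFIIIC libraries 1 and 2. In the other windows it was 23.0 and 23.1% in Rb1L/L and 25.2 and 25.5% in WT. For CAP-D3 the shares were 6.88 and 4.71% in Rb1L/L and 5.37 and 4.26% in WT, against 21.9 and 21.2% in Rb1L/L and 29.8 and 27.9% in WT. TFIIIC peaks covered only 2.38 and 2.31% of the TFIIIC-poor windows in Rb1L/L and 1.51 and 1.70% in WT. Of the other windows they covered 11.7 and 11.9% in Rb1L/L and 6.54 and 8.28% in WT. The choice of windows sets this low cover, so the low overlap is a description, and the part of the cover in it was not tested. H3K27me3 of any library overlapped 1.55% of CAP-H2 peaks in Rb1L/L and 1.51% in WT, against 3.71% in Rb1L/L and 3.73% in WT in the others. For CAP-D3 the H3K27me3 overlap was 10.5% in Rb1L/L (7.15 to 14.7%) and 5.93% in WT (4.09 to 8.26%), against 11.2% in Rb1L/L and 10.6% in WT in the other windows, so only the WT interval excludes the value of the others.

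More of the H3K27me3 peaks were found in a single library. The share with no overlapping peak in any of the 3 other H3K27me3 libraries was 45.9 and 61.9% in Rb1L/L and 28.3 and 55.8% in WT, against 33.2 and 43.1% in Rb1L/L and 18.0 and 32.8% in WT in the other windows. After merging, 104 of 1836 H3K27me3 regions (5.66%) had a peak in all 4 libraries, against 8.76% in the others. H3K27me3 peaks covered 0.30 and 0.43% of TFIIIC-poor windows in Rb1L/L and 0.16 and 0.35% in WT. In the other windows it was 2.01 and 2.62% in Rb1L/L and 1.07 and 1.90% in WT. Median scores were 202 and 113 in Rb1L/L and 221 and 146 in WT, against 255 and 148, and 263 and 188, in the others. The part of sparsity and score in these H3K27me3 overlaps was not tested. TFIIIC peaks with no counterpart in any of the 3 other TFIIIC libraries were likewise more frequent, at 20.7 and 19.01% in Rb1L/L and 22.02 and 18.0% in WT, against 16.5 and 17.2% in Rb1L/L and 16.7 and 14.1% in WT in the other windows. So were TFIIIC peaks found in every library. A peak in all 3 other TFIIIC libraries was found for 33.1 and 33.7% of peaks in Rb1L/L and 47.2 and 43.3% in WT, against 27.6 and 27.1% in Rb1L/L and 42.1 and 35.1% in WT in the others. The rule required a TFIIIC peak in every library per window, so these TFIIIC shares are given as a description.

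The strongest regions shared by all libraries of an antibody were picked after their values were seen, by the highest of the lowest library scores. Many peaks share a score of 3100, which limits the order among them. The first TFIIIC region was chr8:57976730-57979375 with a score of at least 3100 in all 4 libraries and no peak of another antibody. Its window has a peak-free stretch of 911 kb. The second, chr13:120276164-120282299, lies in the last window of chromosome 13, and was overlapped by CAP-D3 in both genotypes and by CAP-H2 in 1. The first H3K27me3 region was chr13:83849807-83883125, 33319 bases wide, with no TFIIIC or condensin II peak. The first CAP-D3 region, chr2:79474695-79476636, and the second, chr6:21898872-21900760, were overlapped by CAP-H2 in both genotypes. The first was also overlapped by 1 TFIIIC library and 1 H3K27me3 library, the second by none of either. The first CAP-H2 region, chr8:55614094-55615789, was overlapped by CAP-D3 in both genotypes and by 2 of 4 TFIIIC libraries. High-scoring condensin II sites with both subunits therefore exist within windows that hold few TFIIIC peaks.

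Individual windows showed no change of H3K27me3 between genotypes that passed the test. The share of peaks per window, on a log2 scale with a pseudocount of 0.5 peaks, was tested with limma in the 1511 autosomal windows with a mean of at least 5 H3K27me3 peaks, of which 37 are TFIIIC-poor. At a Benjamini-Hochberg threshold of 0.05, limma called 0 of 1511 windows (0%), and 59 (3.9%) had an unadjusted p under 0.05. Of the 37 TFIIIC-poor windows, 2 had an unadjusted p under 0.05. The first, chr3:128000001-129000000, had 6 and 18 H3K27me3 peaks in Rb1L/L and 13 and 18 in WT, with a log2 difference of -1.13 ± 0.42 (SE) and a limma adjusted p of 0.931. The second was chr19:60000001-61000000, described above for its many peaks, with 0.52 ± 0.23 (SE) and an adjusted p of 0.931. The median log2 difference was -0.01 over the 37 windows and 0.04 over all 1511. Without WT library 2, limma called 79 of 1503 windows (5.26%), 50 higher (3.33%) and 29 lower (1.93%) in Rb1L/L. Of the 35 TFIIIC-poor windows in that fit, 7 had an unadjusted p under 0.05, 4 of them higher in Rb1L/L, and 3 were called, all lower in Rb1L/L: chr13:117000001-118000000, chr13:83000001-84000000 and chr3:128000001-129000000, with adjusted p of 0.00718, 0.0371 and 0.0377. In that fit the single WT library is assumed to vary like the Rb1L/L pair.

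Counted without a test, both Rb1L/L libraries exceeded both WT libraries in H3K27me3 share in 7 of the 37 windows, where 19.8% of all windows tested did, and fell below both in 6, where 14.2% did. For TFIIIC, both Rb1L/L libraries were above both WT libraries in 36 of the 217 windows (16.6%), against 22.7% of all 2416, and below both in 46 (21.2%), against 23.1%. The TFIIIC lists chose the windows, so nothing is read from the TFIIIC counts. The H3K27me3 shares lie near the background. The condensin II counts that follow are numbers of peaks, not shares of a list. CAP-D3 had more peaks in WT than in Rb1L/L in 143 of the 217 windows (65.9%), against 68.8% of the others. The WT CAP-D3 list is also the larger, with 17192 autosomal peaks against 12926 in Rb1L/L. Mean counts in WT and Rb1L/L were 2.49 and 1.27 in TFIIIC-poor windows and 7.57 and 5.75 in the others. The part of list size in this excess was not tested. CAP-H2 had more peaks in Rb1L/L in 83 windows (38.2%), against 41.4% of the others, and more in WT in 85 (39.2%), against 41.2%.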

How the data were processed

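The 12 deposited peak lists, 1 per immunoprecipitated library and so not called on pooled samples, give a position and a score for each peak. The submitters' processing notes name mm9, Bowtie2 2.3.0 and MACS 1.4.0rc2; settings are not given in the sources used here. Per the labels, the Rb1L/L condensin II libraries share an input with Rb1L/L H3K27me3 library 1, and the WT ones with WT H3K27me3 library 2. The deposited score ranks peaks within a list only, and ran from 50 to 3233. Numbers of reads were not stated. Lists held 13233 to 301874 peaks, and deeper libraries tend to give more and wider peaks, so a fixed mean of 30 weighs the larger TFIIIC lists more. Intervals are exact (Clopper-Pearson) at 95% and cover counting error only.

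Peaks were assigned to windows by midpoint and overlaps needed 1 base (Python 3.11.15, numpy 2.4.6, pandas 2.3.3, scipy 1.17.1). Density ratios were tested by exact sign flips over libraries, shares by exact permutation, and windows with limma 3.58.1 (R 4.3.3, trended variance). The limma code was run on simulated counts with a replicate spread set in advance. That run does not show how many true changes limma would find in these libraries. The members, lists and tests were chosen with earlier results of these data known. Windows are named for the lowest and the limiting TFIIIC counts, for the most peaks of another antibody, and for the smallest limma p. Alternatives changed the limit, score, grid, window size, chromosome ends, gaps, covered length, replicates, pseudocount, filter and normalization.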

Additional observations from a re-analysis of the deposited data

Results flagged for a closer look

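The same rule applied to chromosome X, which the comparisons leave out, found 37 windows of 164 (22.6%). They held 21.2 and 35.7 TFIIIC peaks on average in Rb1L/L and 8.24 and 30.2 in WT. H3K27me3 averaged 2.27 and 4.73 peaks in Rb1L/L and 0.62 and 18.1 in WT, so WT library 2 stood far above the other 3. CAP-D3 averaged 0.97 peaks in Rb1L/L and 1.49 in WT, and CAP-H2 averaged 3.16 in Rb1L/L and 3.70 in WT. These windows were singled out because they carry signal outside the autosomal comparisons. The labels do not state the sex of the embryos, and its part in these values was not tested.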

How the results depend on the processing

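The H3K27me3 log2 density ratio ran from -2.96 to -2.45 (sign-flip p from 0.125 to 0.25) over 20 alternatives. That of the 8 libraries ran from -3.01 to -1.97 (sign-flip p from 0.0078 to 0.0156) over 24. Each p is the smallest that its number of libraries allows, so for H3K27me3 it could not pass 0.05 in any setting. The mean CAP-H2 ratio of -1.33 became -1.43 with a mean under 20 TFIIIC peaks, -1.48 with scores of at least 100, -1.28 without windows with a 300 kb stretch free of peaks, -1.58 by covered length, -1.16 in windows of 500 kb and -1.28 with the grid moved by 500 kb. CAP-D3 became -2.27 by covered length, against -1.89 by number. At scores of at least 500 and 1000, chosen after seeing the data, CAP-D3 was at -3.09 and -3.40 and CAP-H2 at -2.17 and -3.03. Leaving out 1 TFIIIC library, or 1 library of the antibody, in turn gave -2.18 to -1.61 for CAP-D3 and -1.33 to -1.31 for CAP-H2, where the removals of a condensin II library were also chosen after seeing the data and leave a single library. The same gave -2.73 to -2.49 for H3K27me3 and -2.19 to -1.99 for the 8 libraries. The number of TFIIIC-poor windows was 180 to 259 without 1 TFIIIC library, and 511 with the 200350 top-scoring peaks of each list, all 217 among them. The mean share of TFIIIC peaks in the windows, 2.08%, was 1.60 to 2.58% without 1 library, 2.86% with scores of at least 100 and 5.84% with equal numbers of peaks. The genotype difference in H3K27me3 share, -0.04, reversed to 0.08 without Rb1L/L library 1 and 0.18 without WT library 2, within a range of -0.26 to 0.18. Limma called 0 to 3 TFIIIC-poor windows without 1 H3K27me3 library. At scores of at least 100, the overlap of CAP-D3 with CAP-H2 was 33.6% in Rb1L/L and 18.2% in WT. The causes were not tested.

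With the replicate number as a block, limma called 12 of 1511 windows and 0 of the 37 TFIIIC-poor ones; the block of shared numbers is not a pairing by source, and same-numbered deviations correlated at 0.29 over these windows with 2 pairs only. Single condensin II libraries, unknown read depth and 2 libraries per genotype limit every comparison between genotypes.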
